A study of Mus musculus with 19 samples.

Results

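The 35 genes described here are known for their role in the endothelial lineage, the cells that line blood and lymph vessels, and were asked for their content of 5-hydroxymethylcytosine (5-hmC) in DNA of mouse cardiomyocytes (CMCs). They were chosen by name for their function and not by any measured value, though with earlier results of these data known. All 35 were found among the 21000 protein-coding genes with a curated RefSeq transcript on mm10. Each gene was given the span from the first to the last base of its curated transcripts, and its value in a sample was the percent of that span covered by the 5-hmC peaks called in that sample, called coverage below. The question was whether genes of another lineage carried 5-hmC peaks in CMC profiles, at which places, and whether this differed between the points of cardiac growth and disease.

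CMCs of C57BL/6J mice were profiled at 4 points with 2 samples each: embryos at E14.5, pups 1 or 2 days old (neonatal), mice 2 months old (adult), and adult animals 1 week after transverse aortic constriction (TAC), an operation that narrows the aorta and overloads the left ventricle. No gene was altered in these groups. Fragments with 5-hmC were immunoprecipitated from sonicated DNA (hMeDIP), sequenced, and compared with input DNA to call peaks. The study describes the samples of a point as biological replicates, and its isolates were enriched for CMCs rather than pure. Adult cells came from the perfused left ventricle and were left to sediment by gravity, so the preparation differed between the young and the adult points.

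5-hmC is made from 5-methylcytosine by the TET enzymes, mostly at CpG dinucleotides, and in many tissues it lies in the bodies of transcribed genes and at enhancers. Vessels of the heart form from endothelial cells that respond to VEGF and angiopoietin through receptor kinases, hold together through junction proteins such as VE-cadherin and PECAM-1, and keep their identity through ETS-family and SOX-family transcription factors, with Notch signalling setting arterial fate. Not all of these genes are private to vessels: Prox1, which specifies lymphatic endothelium, is also expressed in CMCs, and Notch1, Klf2, Ets1 and Fli1 act in several lineages.

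The 8 peak lists held 104215 to 153637 peaks with a median width of 501 bp in each, and covered between 65.1 Mb and 119 Mb of the genome. The lists gave positions and no height, so a long and a short call, but not a strong and a weak one, could be told apart. The study reported read numbers by condition, but the read depth behind each list was not used here. Replicate 2 of TAC stood apart: 17.9% to 25.7% of the peaks of the other lists shared a base with its peaks, against 25.4% to 66.9% in the 21 pairs among the other 7 lists, and 1.29% to 2.99% of their centres lay within 100 bp of its centres, against 8.80% to 45.2%. Results for TAC rest on this list and on 1 other. E14.5 replicate 2 shared a base with neonatal replicate 2 at 66.9% of its peaks, more than the 42.8% of E14.5 replicate 1 peaks that were shared with E14.5 replicate 2. Of 11 further samples of the series, 9 inputs and 2 libraries of an sh-control experiment, no peak list was used here.

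Endothelial lineage genes carried 5-hmC peaks in all 8 CMC lists. Between 29 and 31 of the 35 genes had a peak in each list, 21 had a peak in every list, and only Sox18 had none. By list these were 82.9% to 88.6% of the members, while 66.9% to 73.6% of the genes of like length described below and 58.3% to 64.7% of all genes had a peak. Mean coverage of the 35 genes was 10.1% ± 1.44 (SD, n = 2) at E14.5, 12.2% ± 2.73 in neonatal CMCs, 9.22% ± 1.89 in adult CMCs and 7.08% ± 1.77 after TAC. Over all 21000 genes the means were 5.42% ± 0.405, 7.15% ± 0.893, 7.71% ± 1.66 and 5.25% ± 1.82. Longer genes hold more peaks, so each member was set against the 200 genes nearest to it in span. Relative to these genes of like length, the members were covered 1.73-fold ± 0.153 at E14.5, 1.56-fold ± 0.152 in neonatal CMCs, 1.11-fold ± 0.000686 in adult CMCs and 1.29-fold ± 0.132 after TAC, where replicate 1 alone gave 1.19-fold and replicate 2 gave 1.38-fold. The E14.5 and neonatal replicates all lay above the adult replicates in this ratio, and the TAC replicates lay between the adult and the neonatal ones. No test was made on these ratios, because the members were chosen as a list. DNA of all cells in an isolate was pooled, so a peak present in few cells and one present in most could not be told apart, and the share of endothelial cells in the isolates was not measured in these data. The study stained isolates for sarcomeric actinin and reported most cells as positive. As a control of purity, it also reported that 5-hmC peaks were absent within abundant endothelial and fibroblast marker genes. Its examples were Vim, Col1a2 and Tcf21, none of which is among the 35 members.

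The members held more CpG than other genes, with a median of 1.5 CpG per 100 bp of span against 1.2 over all genes and 1.21 in the genes of like length. When each member was set against the 200 genes nearest in CpG density instead, the ratios were 1.38-fold ± 0.0872 (SD, n = 2) at E14.5, 1.24-fold ± 0.118 in neonatal CMCs, 0.856-fold ± 0.00730 in adult CMCs and 1.03-fold ± 0.155 after TAC. With comparators of like CpG density both replicates lay above 1 at E14.5 and in neonatal CMCs and below 1 in adult CMCs. The median of the members divided by the median of their like-length means was 1.55, 1.35, 0.845 and 1.05 times at the 4 points in order of age and then TAC. This sets a median against means, which lie higher: over all genes in adult CMCs the mean was 7.71% and the median 2.64%. By mean coverage over the 8 lists, the median percentile of the members among their genes of like length was 72. By the same measure, 25 of the 35 members lay above the mean of these genes.

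Lists of genes for other cell types put these ratios in scale. The 35 cardiomyocyte genes were covered 3.08-fold ± 0.146 (SD, n = 2) relative to genes of like length at E14.5, 3.44-fold ± 0.235 in neonatal CMCs, 1.89-fold ± 0.0724 in adult CMCs and 1.91-fold ± 0.0111 after TAC, above the endothelial members in each of the 8 lists. Genes of mural cells, the smooth muscle cells and pericytes around vessels, lay at 1.98-fold, 2.25-fold, 1.83-fold and 1.94-fold. Fibroblast genes lay at 0.967-fold, 0.738-fold, 0.615-fold and 0.667-fold, below the endothelial members in each of the 8 lists. Blood and immune genes were covered 1.81-fold at E14.5, 1.47-fold in neonatal CMCs, 0.994-fold in adult CMCs and 1.11-fold after TAC, and neuronal genes 1.05-fold, 0.748-fold, 0.594-fold and 0.910-fold. With comparators of like CpG density, blood and immune genes lay at 1.81-fold, 1.48-fold, 1.03-fold and 1.16-fold. The members lay lower by this measure at each point, at 1.38-fold, 1.24-fold, 0.856-fold and 1.03-fold. By length, the members lay below the blood and immune genes only at E14.5. Cardiomyocyte and mural genes lay above the members at each point by both measures, and fibroblast and neuronal genes below them. A peak was found in 82.9% to 88.6% of the members by list and in 77.1% to 85.7% of the 35 cardiomyocyte genes. It was found in 86.7% to 100% of the 15 mural genes and in 56% to 76% of the 25 fibroblast genes. For the 20 blood genes the share was 60% to 85%, and for the 16 neuronal genes 50% to 87.5%. In genes of like length to these lists it was 64.3% to 70.6% (cardiomyocyte), 71.8% to 78.6% (mural), 69.4% to 76.1% (fibroblast), 59.1% to 65.8% (blood) and 74.2% to 81.5% (neuronal). The part these other cells have in the members' peaks was not tested.

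**Figure D1:**
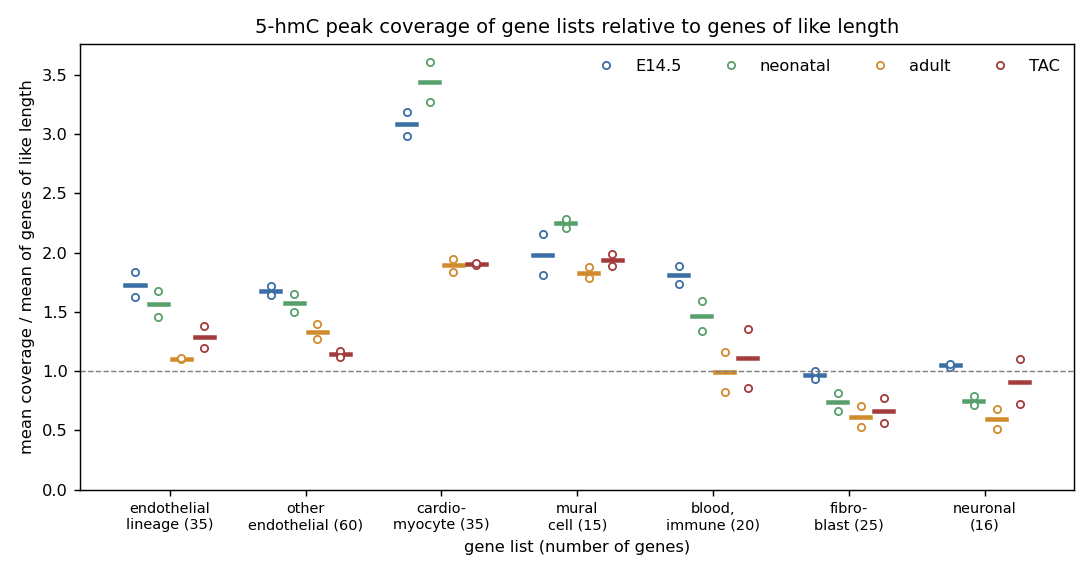
Mean peak coverage of each gene list divided by the mean of genes of like length (vertical axis, a ratio without unit), for E14.5, neonatal, adult and TAC CMCs; open circles are the 2 replicates and bars their mean, and the dashed line marks a ratio of 1. The endothelial members stood at 1.73 at E14.5 and 1.11 in adult CMCs, below the cardiomyocyte genes and above the fibroblast genes at all 4 points.

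A peak found in both replicates of a point is a firmer sign than a peak in one list. Such a shared place, the bases covered in both replicates, was present in 23 of the 35 members at E14.5, 27 in neonatal CMCs, 24 in adult CMCs and 15 after TAC. These were 65.7%, 77.1%, 68.6% and 42.9% of the members, against 49.1%, 53.8%, 48.6% and 32.6% of the genes of like length and 41.7%, 46.4%, 41.6% and 27.8% of all genes. TAC replicate 1 shared a place with adult replicate 1 in 23 members and with adult replicate 2 in 23 members, and with TAC replicate 2 in 15. Over the 21 pairs among the 7 lists other than TAC replicate 2, between 21 and 27 members had a shared place. In the 7 pairs with TAC replicate 2 between 15 and 19 members had one. Whether displaced positions in TAC replicate 2 lower these counts was not tested. Measured in bases rather than genes, the members' shared places took 4.24% of their spans at E14.5 and 5.81% in neonatal CMCs, above the 2.26% and 3.40% of genes of like length. In adult CMCs the same measure was 2.71% against 3.25%, and after TAC 0.760% against 0.763%. More members than other genes thus had a shared place at the adult point, but their shared places covered a smaller part of the gene.

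**Figure D2:**
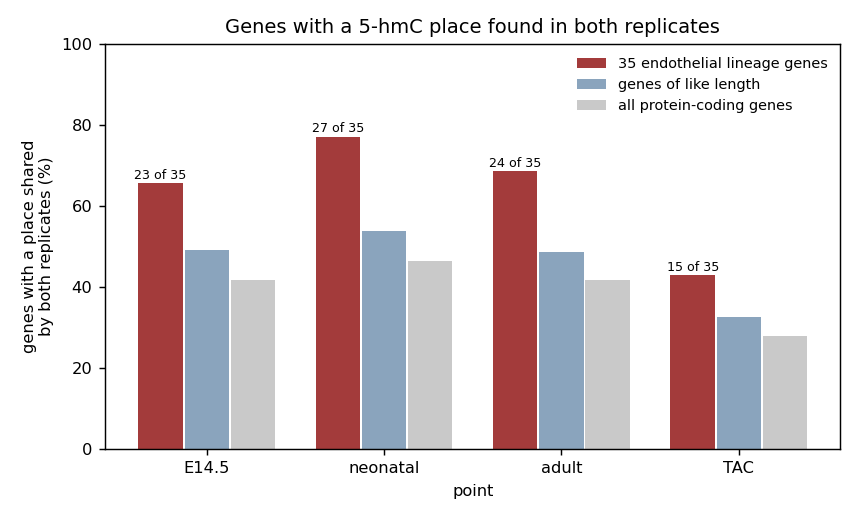
Percent of genes with a 5-hmC place covered in both replicates (vertical axis) at each point, for the 35 endothelial lineage genes, the genes of like length and all 21000 protein-coding genes; each bar is 1 value without an error. The members stood above both comparators at all 4 points, with 27 of 35 in neonatal CMCs and 15 of 35 after TAC.

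Across points, 13 members had a shared place at all 4: Kdr, Flt1, Flt4, Pecam1, Rasip1, Eng, S1pr1, Erg, Fli1, Notch1, Notch4, Lyve1 and Prox1. At TAC the shared bases were few in some of them, with 8 bp in Kdr, 24 bp in S1pr1, 27 bp in Fli1 and 36 bp in Notch1, and only 5 members kept a shared place at TAC where peaks had to overlap by 50% of each. The 13 were 37.1% of the members, against 22.9% of the genes of like length and 18.5% of all genes. Another 8 had one at 3 points, 4 at 2 points and 5 at 1 point. The remaining 5, Emcn, Clec14a, Sox17, Sox18 and Tal1, had none at any point, or 14.3% against 30.5% of the genes of like length. At the level of single bases, 19 members had a base covered in at least 6 of the 8 lists, which was 54.3% of the members and 32.3% of the genes of like length. A base covered in all 8 lists was found in Eng, Erg and Prox1, and in 5.89% of the genes of like length. These counts and the short shared stretches at TAC rest on the positions of TAC replicate 2 as given.

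The 3 places covered in all 8 lists are shown first, as 300 bases around their centre, since they are the places of endothelial genes that were called most often. Each is written 5′ to 3′ on the strand of its gene from the reference genome (GRCm38, the assembly behind mm10), in lower case with every CpG in capitals. The place in Eng spanned intron 6 and coding exon 7, that in Erg lay in intron 1 and that in Prox1 in intron 4. The bases shared by all 8 lists measured 455 bp in Eng, 106 bp in Erg and 7 bp in Prox1. The next 2, chosen after their values were seen, are the widest places of their gene that both replicates of 3 points shared. One lay in a VEGF receptor (Flt1, intron 1, 342 bp), with TAC replicate 2 as the list without it, and one in PECAM-1 (Pecam1, intron 2, 316 bp), with adult replicate 1 as the list without it.
Eng, chr2:32673086-32673385: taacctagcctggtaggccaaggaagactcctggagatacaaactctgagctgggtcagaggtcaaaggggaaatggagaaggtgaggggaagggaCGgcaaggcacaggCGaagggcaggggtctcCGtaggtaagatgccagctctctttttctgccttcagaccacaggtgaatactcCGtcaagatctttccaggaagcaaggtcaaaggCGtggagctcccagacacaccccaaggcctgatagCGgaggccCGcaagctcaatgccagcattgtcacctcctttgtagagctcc
Erg, chr16:95418529-95418828: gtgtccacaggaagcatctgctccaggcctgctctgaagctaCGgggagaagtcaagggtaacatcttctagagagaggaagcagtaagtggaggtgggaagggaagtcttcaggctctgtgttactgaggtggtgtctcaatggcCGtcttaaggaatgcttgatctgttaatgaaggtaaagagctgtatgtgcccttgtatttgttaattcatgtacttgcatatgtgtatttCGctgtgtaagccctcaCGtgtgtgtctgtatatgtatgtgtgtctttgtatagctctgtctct
Prox1, chr1:190130118-190130417: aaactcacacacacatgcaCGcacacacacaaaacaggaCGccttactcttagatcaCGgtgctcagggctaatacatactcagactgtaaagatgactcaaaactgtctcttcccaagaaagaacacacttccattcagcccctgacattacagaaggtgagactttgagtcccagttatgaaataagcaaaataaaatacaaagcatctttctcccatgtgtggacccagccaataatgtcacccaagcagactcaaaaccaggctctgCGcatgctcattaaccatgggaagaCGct
Flt1, chr5:147717108-147717407: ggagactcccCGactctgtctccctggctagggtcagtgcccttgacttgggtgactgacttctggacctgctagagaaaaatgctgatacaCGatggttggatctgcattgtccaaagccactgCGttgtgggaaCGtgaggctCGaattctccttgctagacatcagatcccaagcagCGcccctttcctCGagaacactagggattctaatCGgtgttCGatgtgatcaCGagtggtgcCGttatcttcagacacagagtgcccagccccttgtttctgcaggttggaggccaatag
Pecam1, chr11:106700107-106700406: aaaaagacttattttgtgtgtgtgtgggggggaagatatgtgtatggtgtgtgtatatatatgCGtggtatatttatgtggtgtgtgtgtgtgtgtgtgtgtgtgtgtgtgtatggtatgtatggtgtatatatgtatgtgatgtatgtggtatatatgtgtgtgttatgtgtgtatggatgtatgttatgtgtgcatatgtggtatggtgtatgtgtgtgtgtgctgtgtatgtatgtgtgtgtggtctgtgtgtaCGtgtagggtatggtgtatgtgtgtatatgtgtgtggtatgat

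The Eng window held 7 CpG, the Erg window 4, the Prox1 window 5, the Flt1 window 11 and the Pecam1 window 2. The bases covered in all 8 lists held 9 CpG in Eng, 1 in Erg and 0 in Prox1, so most CpG of the Erg and Prox1 windows lay outside them. For the most part, the Pecam1 window is a run of short TG-rich repeats. Whether its peaks depend on the repeat was not tested. Each of the 5 places lay between 8753 bp and 40669 bp from the nearest transcription start site (TSS) of its gene. Core letters of the factors that act on these genes were searched on both strands: CAGGAA and CCGGAA for ETS factors, AGATAA for GATA factors and ACAAAG for SOX factors. CAGGAA stood in the Eng and Erg windows, ACAAAG in the Eng, Erg and Prox1 windows and AGATAA in the Flt1 window. Over all 115 shared places of the members at E14.5, a 300-base window at the centre held CAGGAA in 39.1%, against 29.4% of the 57562 shared places of the whole genome at that point, and ACAAAG in 27.0% against 20.6%. For ACAAAG the shares were 21.4% against 21.1% in neonatal CMCs, 21.7% against 21.4% in adult CMCs and 25.7% against 22.3% after TAC. In the other points CAGGAA stood in 32.1% of the members' windows against 29.5% in neonatal CMCs, in 31.7% against 31.0% in adult CMCs and in 25.7% against 29.5% after TAC. AGATAA was found in 15.7% of the members' windows at E14.5 and 15.2% in neonatal CMCs, against 13.9% and 14.4%, in 6 of 60 in adult CMCs against 12.1%, and in 1 of 35 after TAC against 13.2%. CCGGAA, the ETS core with a CpG, was found in 5 of 115 windows at E14.5, 4 of 112 in neonatal CMCs, 1 of 60 in adult CMCs and 0 of 35 after TAC, while 3.92%, 4.13%, 5.04% and 3.74% of all shared places held it. These are matches of letters and no test was made of them.

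Most shared places of the members lay in introns. At E14.5, 106 of 115 were centred in an intron, 7 in a coding exon and 2 in an untranslated exon. In neonatal CMCs these counts were 92, 14 and 6 of 112, in adult CMCs 51, 8 and 1 of 60 and after TAC 27, 3 and 5 of 35. First introns held 28, 25, 10 and 6 of them. These counts were not set against the share of introns in the members' spans. At most 2 places of a point were centred within 1 kb of a TSS. The places were richer in CpG than the genes around them, with 1.80 CpG per 100 bp at E14.5, 1.87 in neonatal CMCs, 2.17 in adult CMCs and 1.91 after TAC, against 1.32 over the whole spans. Shared places of the whole genome held 1.53, 1.55, 1.86 and 1.62 CpG per 100 bp at the same points, less than those of the members.

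By zone, the mean ratio at E14.5 and in neonatal CMCs was highest in the gene body (GB), here the span more than 1 kb from any TSS, though in neonatal replicate 2 the 10 kb after the gene end stood at 1.77 and the GB at 1.75. In adult CMCs and after TAC the GB was not the highest zone. GB coverage was 10.6% ± 1.86 (SD, n = 2) at E14.5 and 13.3% ± 2.76 in neonatal CMCs, or 1.80-fold ± 0.200 and 1.66-fold ± 0.120 relative to genes of like length, then 1.11-fold ± 0.0333 in adult CMCs and 1.32-fold ± 0.122 after TAC. Within 1 kb of the TSS the ratios were 1.25 ± 0.421, 1.11 ± 0.0448, 1.34 ± 0.255 and 1.53 ± 0.364, and the replicates of E14.5 fell on both sides of 1. The 10 kb after the gene end were covered 1.51-fold ± 0.0871, 1.58-fold ± 0.272, 1.52-fold ± 0.120 and 1.56-fold ± 0.0517, so the means of this flank differed less between points than those of the GB. Before the gene, from 10 kb to 1 kb upstream, the ratio was 1.35 ± 0.0993, 1.30 ± 0.174, 1.33 ± 0.216 and 0.889 ± 0.0314, and both TAC replicates lay below 1.

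**Figure D3:**
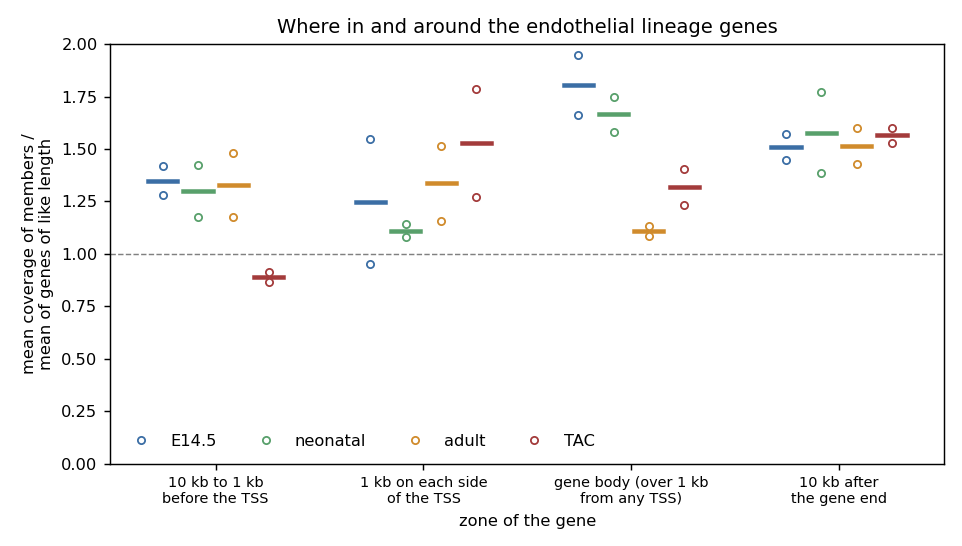
Mean coverage of the members divided by the mean of genes of like length (vertical axis, a ratio without unit) in 4 zones of the gene, for the 4 points; open circles are the 2 replicates and bars their mean, and the dashed line marks a ratio of 1. The GB ratio was 1.80 at E14.5 and 1.11 in adult CMCs, while the 10 kb after the gene stayed between 1.51 and 1.58.

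Among the receptor kinases, Flt1 and Kdr encode the VEGF receptors 1 and 2, Flt4 the receptor for lymphatic VEGF, and Tek and Tie1 the receptors of the angiopoietin system. Kdr (chr5:75932827-75978455, minus strand; 45.6 kb) was covered 8.31% and 14.6% at E14.5, 7.7% and 19.7% in neonatal CMCs, 5.67% and 5.52% in adult CMCs and 4.82% and 5.01% after TAC. Both adult values lay under all 4 E14.5 and neonatal values, which differed among themselves by more than the adult and TAC values did. Flt1 (chr5:147561604-147726011, minus strand; 164 kb) was covered 12.6% and 12.3% at E14.5, 11.8% and 18.7% in neonatal CMCs, 7.08% and 10.5% in adult CMCs and 7.49% and 5.87% after TAC. It exceeded its genes of like length in all 8 lists, and the adult and TAC values lay below the E14.5 and neonatal ones. For Flt4 (chr11:49609679-49652739, plus strand; 43.1 kb) the values were 16% and 11% at E14.5, 13.5% and 3.98% in neonatal CMCs, 5.67% and 13.6% in adult CMCs and 6.83% and 10.1% after TAC, and no order between points was seen. Tek, at 0.529% to 3.54%, lay under its genes of like length in every list, and Tie1 ranged from 0% in neonatal replicate 1 to 13% in E14.5 replicate 2. Tek had a peak in every list and yet the lowest coverage of the group.

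Junction and surface proteins spanned the whole range. Pecam1 (chr11:106654213-106715281, minus strand; 61.1 kb), the adhesion molecule CD31, was covered 17.7% and 17.5% at E14.5, 15.3% and 26.8% in neonatal CMCs, 13.5% and 19.1% in adult CMCs and 10.6% and 8.7% after TAC. It was above its genes of like length in all 8 lists, 2.39 times their mean, and both TAC values lay below both adult values. Rasip1 (chr7:45627537-45639092, plus strand; 11.6 kb), a RAS-binding protein needed for vessel lumens, was covered 21.2% and 22.8% at E14.5, 17.3% and 23.3% in neonatal CMCs, 22.8% and 22% in adult CMCs and 18.2% and 18.2% after TAC. It was the steadiest of the well-covered members, at 17.3% to 23.3% in every list. Icam2 (chr11:106377656-106382781, minus strand; 5.13 kb), a short gene for a leukocyte-binding surface protein, gave 29.9% and 0% at E14.5, 9.77% and 47.7% in neonatal CMCs, 9.77% and 35.6% in adult CMCs and 0% and 9.77% after TAC. Its replicates differed widely at each point. VE-cadherin, the junction protein encoded by Cdh5, was covered 1.46% to 11.5%, with a peak in every list.

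Emcn (chr3:137341078-137431069, plus strand; 90 kb), an endomucin of veins and capillaries, was covered 1.67% and 3.14% at E14.5, 0.557% and 0% in neonatal CMCs, 0% and 0% in adult CMCs and 0.557% and 1.11% after TAC. It lay below its genes of like length in all 8 lists. Plvap (chr8:71497753-71511769, minus strand; 14 kb), which forms the diaphragms of fenestrated capillaries, gave 3.57% and 3.0% at E14.5, 0% and 3.57% in neonatal CMCs, 9.95% and 15.8% in adult CMCs and 9.5% and 4.99% after TAC. It was the one member whose adult values both lay above both neonatal values. Its span shares 1872 bp with Gtpbp3, where peaks covered 47.7% and 49.3% of the bases in the adult lists against 0% and 20.9% in the neonatal ones, so part of this difference lies in bases of both genes. Ptprb, Mmrn2, Robo4 and Esam had values between 0% and 20.9%, with a peak in 8, 8, 7 and 6 lists. These encode a phosphatase that acts on VE-cadherin, a matrix protein of vessels, a guidance receptor and a tight junction protein. Clec14a, a surface lectin, was covered at 0.176% in TAC replicate 2 and at 0% elsewhere.

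Signalling and secreted proteins were covered 2.5-fold ± 0.679 (SD, n = 2) relative to genes of like length at E14.5, 2.34-fold ± 0.282 in neonatal CMCs, 1.47-fold ± 0.0716 in adult CMCs and 1.51-fold ± 0.389 after TAC, where replicate 1 gave 1.79-fold and replicate 2 gave 1.24-fold. Eng (chr2:32646595-32682669, plus strand; 36.1 kb) encodes endoglin, a co-receptor for TGF-beta and BMP9, and was covered 26.7% and 17.9% at E14.5, 25.8% and 25.9% in neonatal CMCs, 21.2% and 14.7% in adult CMCs and 18.1% and 9.63% after TAC. It stood at 3.42 times the mean of its genes of like length over the 8 lists and above them in each, and the lowest value was in TAC replicate 2. S1pr1 (chr3:115710433-115715055, minus strand; 4.62 kb), the receptor for sphingosine-1-phosphate, gave 33.5% and 19.7% at E14.5, 19.9% and 29.1% in neonatal CMCs, 13.6% and 16.7% in adult CMCs and 18% and 10.8% after TAC. Its E14.5 and neonatal values all lay above its adult and TAC values. Acvrl1 (chr15:101128522-101145336, plus strand; 16.8 kb), the partner of endoglin in BMP9 signalling, was covered 10.7% and 14.2% at E14.5, 12.1% and 12.9% in neonatal CMCs, 10.1% and 20.7% in adult CMCs and 16.9% and 2.13% after TAC, and showed no order between points. Vwf (chr6:125552948-125686679, plus strand; 134 kb), the clotting factor stored in endothelial cells, was lower, with 6.42% and 6.66% at E14.5, 3.88% and 5.16% in neonatal CMCs, 1.5% and 3.19% in adult CMCs and 1.7% and 3.0% after TAC. Both neonatal values of Vwf lay below both E14.5 values, and both adult values below both neonatal ones. Nos3, the endothelial nitric oxide synthase, ranged from 3.22% to 20.9%, and Egfl7, a secreted vessel factor, from 0% to 21.5%. The span of Nos3 shares 294 bp with Atg9b.

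The ETS factors Erg, Fli1 and Ets1 have long spans and had peaks in all 8 lists. Erg (chr16:95359169-95586593, minus strand; 227 kb), a keeper of endothelial identity, was covered 9.4% and 11.8% at E14.5, 9.08% and 11.4% in neonatal CMCs, 6.14% and 7.03% in adult CMCs and 6.38% and 5.95% after TAC. Its adult and TAC values lay below its E14.5 and neonatal values, and it exceeded its genes of like length in all 8 lists. Fli1 (chr9:32422204-32541452, minus strand; 119 kb) gave 7.34% and 9.75% at E14.5, 10.4% and 11.3% in neonatal CMCs, 1.79% and 5.78% in adult CMCs and 3.67% and 4.93% after TAC, with the same order. Ets1 followed with 8.96% to 11.1% at the young points and 1.76% to 5.06% at the adult and TAC points. The SOX factors varied between lists, with Sox18 at 0% in all 8, Sox17 at 7.80% in E14.5 replicate 2 and neonatal replicate 2 and at 0% in the other 6 lists, and Sox7 from 0% to 31.9%.

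Tal1 (chr4:115056426-115071755, plus strand; 15.3 kb), a factor of blood and endothelial progenitors, was covered 0% and 0% at E14.5, 4.97% and 5.17% in neonatal CMCs, 8.82% and 3.27% in adult CMCs and 3.53% and 6.54% after TAC. It thus had a peak in all 6 later lists and in neither E14.5 list, though no base was shared by 2 replicates of a point. Klf2 (chr8:72319062-72321654, plus strand; 2.59 kb), which is induced by blood flow, was covered 25% and 0% at E14.5, 27.1% and 39.1% in neonatal CMCs, 41.1% and 0% in adult CMCs and 29.9% and 19.1% after TAC. The zeros fell in 1 replicate each of E14.5 and adult, so that the mean of this short gene depends on the replicate.

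In the Notch group, the receptors Notch1 and Notch4 had peaks in all 8 lists and the ligand Dll4 in 6. Notch1 (chr2:26457902-26503822, minus strand; 45.9 kb) was covered 15.7% and 3.55% at E14.5, 13.7% and 5.22% in neonatal CMCs, 10.5% and 14.8% in adult CMCs and 15% and 3.19% after TAC. Notch4 (chr17:34564295-34588543, plus strand; 24.2 kb), the more vessel-restricted receptor, gave 12.2% and 17.6% at E14.5, 7.49% and 17.4% in neonatal CMCs, 2.98% and 14.9% in adult CMCs and 8.78% and 5.2% after TAC. Neither gene showed an order between points, and Dll4 ranged from 0% to 11.5%. The lymphatic genes were Lyve1, a hyaluronan receptor, and Prox1. Lyve1 (chr7:110850607-110862953, minus strand; 12.3 kb) was covered 6.73% and 7.94% at E14.5, 11.7% and 12.2% in neonatal CMCs, 5.36% and 6.56% in adult CMCs and 10.2% and 10.7% after TAC, and its replicates agreed closely: neonatal values lay above all others, TAC values next, and adult values lowest. Prox1 (chr1:190118035-190170827, minus strand; 52.8 kb) had the highest mean of all members, 23.4% over the 8 lists and 3.79-fold that of its genes of like length, with 25.3% and 24.1% at E14.5, 25.1% and 31.3% in neonatal CMCs, 16.4% and 27.9% in adult CMCs and 26.4% and 11% after TAC. TAC replicate 2 was its lowest value.

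**Figure D4:**
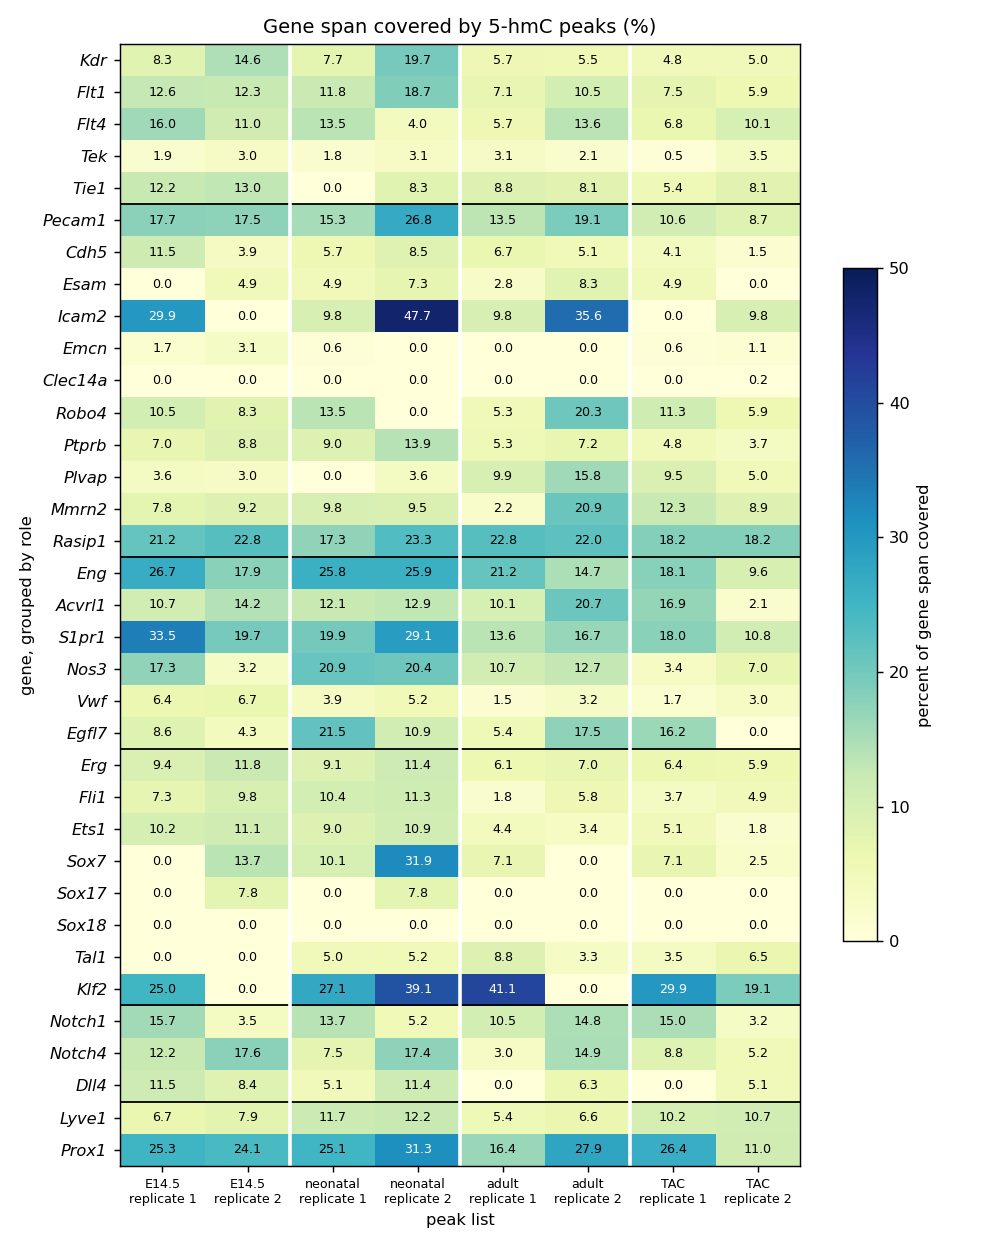
Percent of each gene span covered by 5-hmC peaks (colour and printed number) for the 35 members in rows, grouped by role with black lines, and the 8 peak lists in columns. Prox1, Klf2, Rasip1, S1pr1, Eng, Icam2 and Pecam1 form the darkest rows, and Sox18, Clec14a, Sox17 and Emcn the palest.

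Between points, no member passed the test in any of 4 contrasts. limma was fitted to log2(percent covered + 1) of 16056 genes with a peak in at least 2 lists, a filter that 33 members passed and Clec14a and Sox18 did not. With an adjusted p under 0.05 over all genes tested, 0 of 33 members and 73 genes (0.455%) were called for neonatal minus E14.5, 0 and 214 genes (1.33%) for adult minus neonatal, 0 and 131 genes (0.816%) for TAC minus adult, and 0 and 281 genes (1.75%) for adult minus E14.5. At an unadjusted p under 0.05 there were 2, 4, 0 and 4 members, while 6.63%, 10.1%, 6.79% and 16.8% of all genes passed that level. The lowest adjusted p among members was 0.239, 0.374, 0.741 and 0.0935 in limma. With 2 samples a point and SEs of 0.31 to 2.17 on the log2 scale, a difference that missed the threshold is not shown to be absent.

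The 5 members with the smallest unadjusted p were Tal1, Emcn, Plvap, Vwf and Lyve1. On the log2(percent + 1) scale Tal1 differed between adult and E14.5 by 2.69 ± 0.51 (SE), with an unadjusted p of 0.00238 and an adjusted p of 0.0935 in limma. Emcn differed in the same contrast by -1.73 ± 0.42 (SE), with an unadjusted p of 0.00707 and an adjusted p of 0.166 in limma. For Vwf the difference was -1.22 ± 0.42 (SE), with an unadjusted p of 0.0287 and an adjusted p of 0.245 in limma. These are single values among 33 members, and none passed after adjustment. Between adult and neonatal CMCs, Plvap differed by 2.67 ± 0.78 (SE), with an unadjusted p of 0.016 and an adjusted p of 0.374 in limma, and Lyve1 by -0.90 ± 0.31 (SE), with an unadjusted p of 0.0293 and an adjusted p of 0.433 in limma. An exact permutation test (one-sided, for means of the points that lie further apart than under the 105 ways to pair up the 8 lists) gave Lyve1 p = 0.00952, the smallest this design allows, with an adjusted p of 0.559. Ptprb had p = 0.0190, Plvap 0.0286, Vwf 0.0476 and Fli1 0.0476 in the same exact test, and 7.74% of all genes had a p under 0.05.

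Without a model, more members were lower than higher in adult than in neonatal CMCs. Both adult replicates lay below both neonatal replicates in 12 of 33 members, namely Kdr, Flt1, Ptprb, Eng, S1pr1, Nos3, Vwf, Erg, Fli1, Ets1, Sox7 and Lyve1, against 21.7% of all genes tested, and above them in 1, Plvap, against 16.5%. The median difference was -0.52 over the members and -0.06 over all genes on the log2(percent + 1) scale. The medians of the other lists were also below that of all genes, at -0.62 for cardiomyocyte, -0.54 for blood, -0.48 for fibroblast, -0.36 for neuronal, -0.33 for mural and -0.32 for the other endothelial genes. From E14.5 to the neonatal point 8 members were higher in both replicates, against 25.9% of all genes, and 3 were lower, against 6.6%, with medians of 0.14 and 0.21, and of -0.02 and 0.12 without neonatal replicate 2. From adult to TAC 2 members, Emcn and Lyve1, were higher in both replicates, against 6.06%, and 8 were lower, against 24%, with medians of -0.29 over members and -0.31 over all genes. Without TAC replicate 2 the medians were -0.02 over members and -0.09 over all genes. From E14.5 to adult the medians were -0.26 over members and 0.16 over all genes. Centring each list on its own mean left 9 members higher and 24 lower in adult than in neonatal CMCs, as before, with medians of -0.48 and -0.02. It turned 19 higher and 13 lower into 10 and 23 for neonatal minus E14.5 and 7 and 25 into 21 and 12 for TAC minus adult. Centring moves all genes of a list by 1 amount, and over all genes tested 9793 higher and 5394 lower became 7152 and 8904 for neonatal minus E14.5, and 4919 and 10131 became 8405 and 7651 for TAC minus adult. The direction of the members in these contrasts therefore depends on the scaling, as it does for all genes.

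**Figure D5:**
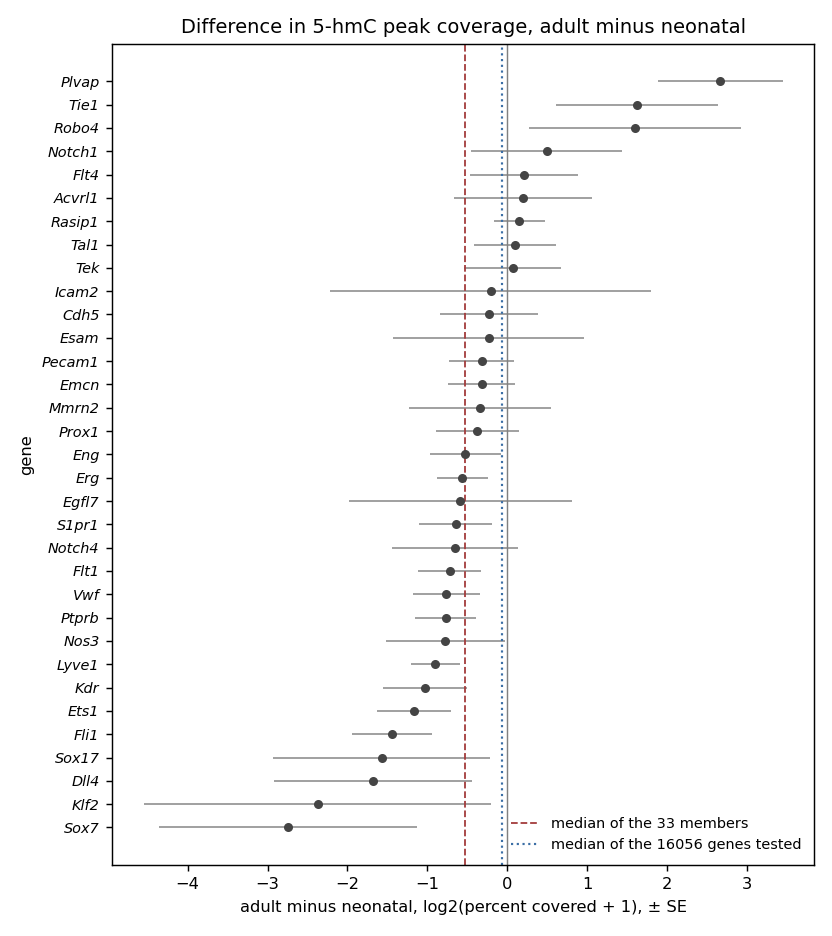
Difference in coverage between adult and neonatal CMCs for the 33 members tested (points, with bars of 1 SE from limma), on the log2(percent covered + 1) scale. The dashed line is the median of the members (-0.52) and the dotted line the median of the 16056 genes tested (-0.06). Lists of other cell types had medians of -0.32 to -0.62, and no member passed an adjusted p of 0.05 in limma.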

How the data were processed

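Peak lists of 8 hMeDIP samples were used. According to the methods and the submitters' processing notes, the authors mapped reads to mm10 with BWA 0.7.4-r385, filtered duplicates (Picard) and poorly mapped reads, and then called peaks per sample with HOMER against input. The deposited lists hold positions and a score column, which is 1 in every row, so the score was not used. Per the file headers, tags were scaled to the input in 4 lists (neonatal replicate 2, adult replicate 2 and both TAC lists), and the input to the tags in the other 4. Peaks on the mitochondrial genome were left out, and overlapping peaks of a list were merged.

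Gene spans came from the curated transcripts of RefSeq release 108.20200622 on GRCm38, the assembly behind mm10. Comparators were the 200 genes nearest in span to each member, other members left out. Contrasts were fitted with limma 3.58.1 in R 4.3.3 on log2(percent + 1), all 8 samples in 1 fit with group means, and Benjamini-Hochberg adjustment over all 16056 genes tested. Scripts in Python 3.11.15 were tested on simulated data. The members, the other gene lists and the tests were chosen with earlier results of these data known, so agreement with a list's name is no independent support. Values by sample were given for the 8 members with the highest mean, the 5 with the smallest p and those with a shared place at all 4 points. Alternatives were the number and kind of comparators, the span, the overlap, equal numbers of peaks, the pseudocount, centring, filters, a replicate block, leaving out each replicate and, chosen after seeing the data, GENCODE M21 spans. Replicate numbers were not used as pairs.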

Additional observations from a re-analysis of the deposited data

How the results depend on the processing

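With the 200 genes nearest in CpG density as comparators, the members' coverage relative to other genes moved to 1.38 at E14.5, 1.24 in neonatal CMCs, 0.856 in adult CMCs and 1.03 after TAC. With the median over members, set against the median of their like-length means, it moved to 1.55, 1.35, 0.845 and 1.05. The adult ratio of 1.11 was 1.12 with 50 comparators and 1.11 without 1 kb around any TSS. It was 1.09 with all lists thinned to 104215 peaks and 1.16 with GENCODE M21 spans, chosen after seeing the data. The SD of 0.000686 between its 2 replicates is not a measure of its precision. In the same adult lists the junction and surface members gave 0.929 and 1.43, and the transcription factor members 1.24 and 0.236. Leaving out a replicate gave 1.62 to 1.84 at E14.5, 1.46 to 1.67 in neonatal CMCs, 1.11 in adult CMCs and 1.19 to 1.38 after TAC. The 15 members with a shared place after TAC became 5 where peaks had to overlap by 50% of each and 18 where peak centres lay no more than 1 kb apart. They became 33 with a peak in either replicate, and leaving out a replicate gave 30 to 31. At the other points a peak in the single remaining replicate was found in 29 to 30 members at E14.5, 30 to 31 in neonatal CMCs and 29 to 30 in adult CMCs.

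No member was called in limma in 55 of the 56 alternative fits. The exception was Tal1 in adult minus E14.5 with a pseudocount of 0.5, where 1 member was called, with an adjusted p of 0.0484 in limma and a log2 difference of 3.57. Over all genes the calls varied more, from 73 in neonatal minus E14.5 to 23 with centred lists, 0 with spans of at least 5 kb or the block, 132 with no filter and 0 to 142 on leaving out a replicate. For adult minus neonatal 214 became 117 with spans of at least 5 kb, 113 with the block and 0 to 362 on leaving out a replicate, with 0 in each case without a neonatal replicate. For TAC minus adult 131 became 85 with centred lists, 40 with spans of at least 5 kb, 44 with the block and 0 to 327 on leaving out a replicate, with 0 without adult replicate 1. For adult minus E14.5 281 became 165, 156 and 110 to 540 under the last 3 of these. With the replicate number as a replicate block 0 members were called in each contrast. The deviations of same-numbered samples correlated at 0.231 between E14.5 and neonatal and at 0.0185 to 0.0957 in the other pairs of points, so the numbers were not taken to pair the samples over all points. E14.5 and neonatal lists of the same number shared 48.7% (replicate 1) and 66.9% (replicate 2) of the E14.5 peaks, against 42.8% between the E14.5 replicates. Read depth behind the peaks was not taken into account, peak height was not given, and in genes of a few kb 1 peak more or less decides the value.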

Other observations

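A wider list of 60 other endothelial genes lay at 1.68-fold relative to genes of like length at E14.5, 1.57-fold in neonatal CMCs, 1.33-fold in adult CMCs and 1.14-fold after TAC. Vcam1, an adhesion molecule for leukocytes, was the 1 of its 52 tested genes called in any contrast, lower after TAC than in adult CMCs with an adjusted p of 0.0307 in limma. Over all genes 131 of 16056 (0.816%) were called in that contrast, so 1 call is near that share. Lox, the 1 gene called there among 22 tested of the fibroblast list, was higher after TAC. Of the 20 blood genes tested, Cd68 and Tyrobp were called there, 1 of them higher and 1 lower after TAC. Cldn5, a tight junction gene of 1416 bp with defining expression in endothelium, had no peak in any of the 8 lists.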
